A study of Mus musculus with 4 samples.

Results

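The transcripts described here encode heterogeneous nuclear ribonucleoproteins (hnRNPs) and SR proteins, the most abundant families of nuclear RNA-binding proteins. They were chosen by gene symbol: every symbol that begins with Hnrnp, the numbered Srsf genes, the older hnRNP L symbols, and *Ptbp1*, *Ptbp2*, *Ptbp3*, *Pcbp1*, *Pcbp2*, *Tra2a* and *Tra2b*. By that rule 48 of the 21044 probe sets that name exactly 1 gene were taken, and they stand for 34 of 19452 genes. RNA came from cytoplasmic lysate of proliferating C2C12 (LKO-1) cells, a mouse myoblast line that carries an empty lentiviral vector and is kept in puromycin. A monoclonal anti-CUGBP1 antibody (CUGBP1 IP, 2 arrays) or normal IgG (control IgG, 2 arrays) was used to pull it down. Cells of a single stable line served for all 4 arrays, and the antibody is the only labelled difference between groups. The comparison asks which transcripts were associated with CUGBP1.

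CUGBP1, the product of *Celf1*, binds GU-rich sequence, acts on splicing in the nucleus and recruits deadenylases to the 3′ end of mRNAs in the cytoplasm. hnRNPs coat nascent transcripts through RRM or KH domains and often repress the exons they bind. SR proteins carry 1 or more RRMs and a domain rich in arginine and serine, and in general promote exon inclusion. Many genes of both families control their own mRNA level by including a conserved exon with a premature stop codon, and several also yield processed pseudogenes, copies of the mRNA inserted elsewhere in the genome.

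Each value is an intensity divided by its array's own 5th percentile, so a probe set without signal reads about 1. The median of the tested probe sets was 1.31 and 1.50 on the CUGBP1 IP arrays, against 1.08 and 1.22 with control IgG, and the arrays therefore differ in their general level. Replicate 2 was the brighter array in both groups. The upper end of the background range, taken from 1203 probe sets for olfactory or vomeronasal receptors, was 1.23 and 1.29 with anti-CUGBP1, against 1.09 and 1.16 with control IgG. The myoblast transcripts *Myod1*, *Myf5*, *Chrna1* and *Des* were above that range on all 4 arrays and *Cdh15* on 3, while *Alb*, *Ptprc* and *Krt5* were above it on none. Of the other non-muscle markers, *Apoa1* was above it on 2 arrays, *Ttr*, *Cd3e* and *Krt10* on 1 each. The epithelial keratin *Krt14* was above it on all 4, with 1.57 and 2.21 on the CUGBP1 IP arrays, against 1.25 and 1.88 with control IgG. A value higher in the CUGBP1 IP can reflect more of a transcript in the immunoprecipitate or more labelled RNA on the whole array, and these cannot be told apart from 2 arrays per group.

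On the scale as deposited, transcripts of hnRNPs and SR proteins had ratios of CUGBP1 IP to control IgG above 1 throughout, but none passed the test and 28 of the 48 probe sets change sign with quantile normalization. The signal-to-negative ratio, which divides the CUGBP1 IP mean by the control IgG mean, had a median of 2.14 over the 48 probe sets and ran from 1.06 for *Srsf12* to 4.27 for *Ptbp3*. Its median over all tested probe sets was 1.22, and 1.61 over those above background on all 4 arrays. Of the 48 probe sets, 46 were above background on all 4 arrays, where the share over all tested probe sets was 36.7%. The exceptions were *Srsf12* and a probe set of *Tra2a*.

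The lower CUGBP1 IP value exceeded the higher control IgG value for 44 of the 48 probe sets, as it did for 66.3% of all tested probe sets. Groups apart in this direction made up 78.0% of all probe sets above background on all 4 arrays. In 0 of the 48 the order was the opposite, against 0.95% of all. The log2 difference was above 0 for all 48, and for 94.0% of all tested probe sets. The groups overlapped for *Srsf9*, *Srsf12*, *Hnrnpab* and a probe set of *Ptbp1*. In the top 5% of ratios, at 2.57 or more, lay 16 of the 48 probe sets (12 genes). The share over all tested probe sets is 5.0% by construction, and it was 12.6% over those above background on all 4 arrays. *Srsf3* and *Srsf10* are among the 12 genes only through probe sets whose neighbouring ID numbers lie on another chromosome, as described below. Just inside the limit were *Tra2b* (2.70) and *Srsf2* (2.59), and just outside it *Hnrnpc* (2.47) and *Hnrnpf* (2.42).

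A difference larger than the replicate spread was not shown for any of them. limma, fitted over all tested probe sets with Benjamini-Hochberg adjustment, called 0 of the 48 higher and 0 lower, where it called 1.95% of all tested probe sets higher and 0.138% lower. At an unadjusted p under 0.05 there were 13 of 48, against 28.6% of all tested probe sets that were higher at that level. The adjusted p of the 48 ran from 0.0873 (*Srsf11*) to 0.586 (*Srsf12*). The standard error (SE) of their log2 differences ran from 0.13 to 1.33. The control arrays differed from each other: the ratio against control IgG replicate 1 alone ran from 1.14 to 6.19 and that against control IgG replicate 2 alone from 0.988 to 3.28.

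**Figure D1:**
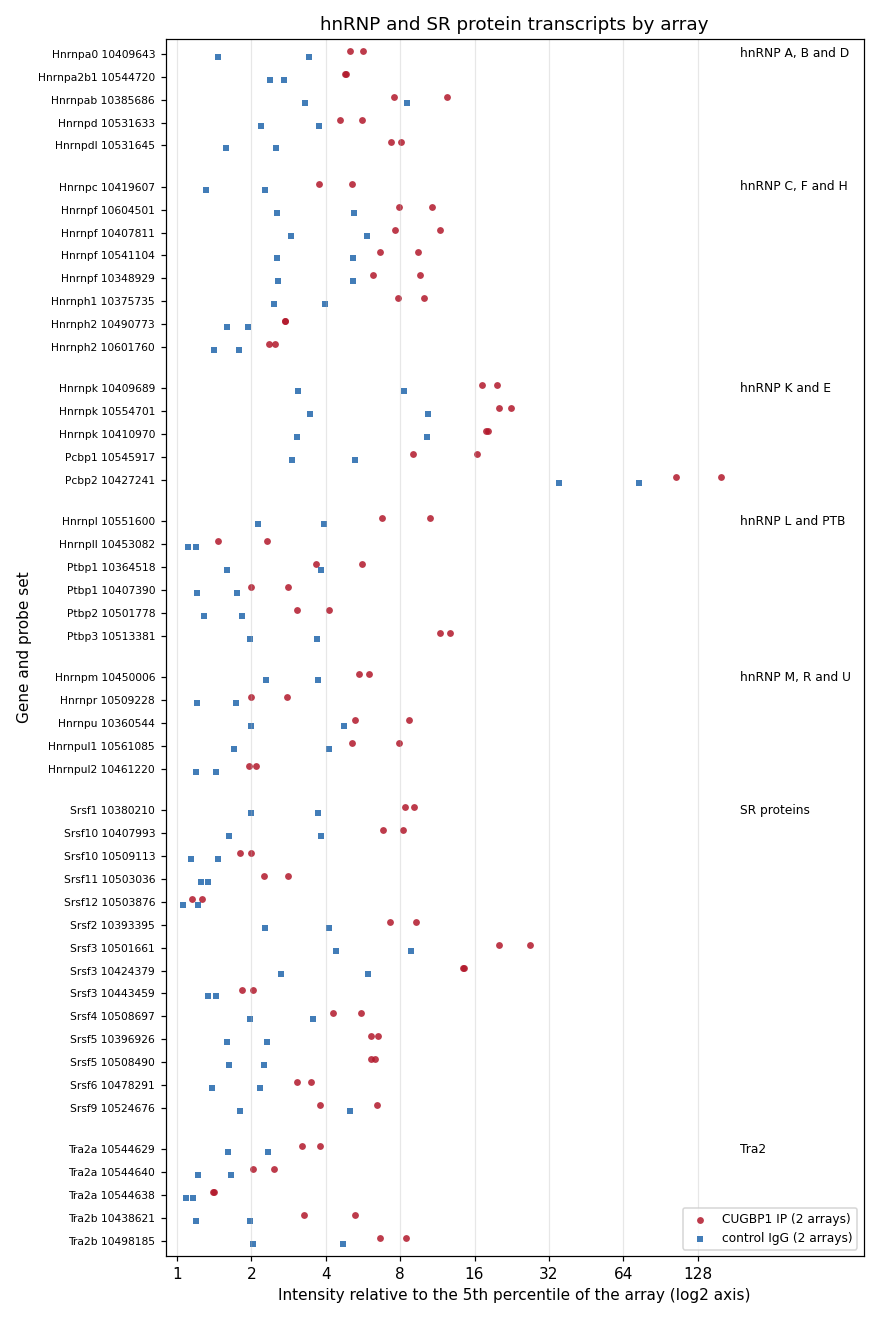
Intensity relative to the 5th percentile of the array (log2 axis) for the 48 probe sets, grouped by role, with 1 point per array (circles, CUGBP1 IP; squares, control IgG). Both CUGBP1 IP points lie to the right of the control IgG points in 44 rows, and *Srsf9*, *Srsf12*, *Hnrnpab* and a probe set of *Ptbp1* are the exceptions.

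The poly(C)-binding proteins had high ratios on the deposited scale. hnRNP K and the PCBPs bind C-rich RNA through KH domains and act in splicing, translation and mRNA stability. The groups were apart for all 5 probe sets and the median ratio was 3.09. In the top 5% were 4, the 3 of *Hnrnpk* and that of *Pcbp1*. Over all probe sets above background on all 4 arrays, these shares were 78.0% and 12.6%. With quantile normalization the log2 difference ran from 0.03 to 0.17 for *Hnrnpk*, and was -0.03 for *Pcbp1* and 0.59 for *Pcbp2*. *Pcbp1* read 9.0 and 16.35 on the CUGBP1 IP arrays, against 2.91 and 5.25 with control IgG, a ratio of 3.11 (log2 difference 1.63, SE 1.14, limma adjusted p = 0.264). *Pcbp2* read 104.49 and 158.87 on the CUGBP1 IP arrays, against 35.08 and 74.36 with control IgG, a ratio of 2.41 (log2 1.33, SE 0.78, limma adjusted p = 0.204). For both genes the groups were apart, and the lower CUGBP1 IP array was the first. *Hnrnpk* had ratios of 2.71, 3.09 and 3.24 at its 3 probe sets, of which the first and the last have neighbouring IDs on the gene's own chromosome. The IDs of these probe sets (10410970 and 10409689) are far apart, so a shared chromosome does not place both at the gene. At 10409689, the probe set with the ratio of 3.24, *Hnrnpk* read 17.09 and 19.75 on the CUGBP1 IP arrays, against 3.08 and 8.28 with control IgG. The CUGBP1 IP arrays of *Hnrnpk* lie close together there, and the control arrays do not.

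For hnRNP L, which binds CA repeats, and the polypyrimidine tract proteins, ratios on the deposited scale ran from 1.63 to 4.27. *Ptbp3*, a paralogue of PTB, had the highest ratio of the 48, with 11.56 and 12.68 on the CUGBP1 IP arrays, against 1.98 and 3.70 with control IgG (ratio 4.27, log2 2.16, SE 1.04, limma adjusted p = 0.158). It stood at percentile 98.3 of all ratios, and was 6.12 times control IgG replicate 1 and 3.28 times control IgG replicate 2. Its paralogues had lower ratios. *Ptbp2*, the neuronal form, read 3.06 and 4.12 on the CUGBP1 IP arrays, against 1.28 and 1.84 with control IgG (ratio 2.30, limma adjusted p = 0.112). *Ptbp1*, which represses many exons, read 3.66 and 5.62 on the CUGBP1 IP arrays, against 1.59 and 3.81 with control IgG at probe set 10364518 (ratio 1.72, limma adjusted p = 0.313). There the lower CUGBP1 IP array was below control IgG replicate 2. *Hnrnpl* read 6.76 and 10.59 on the CUGBP1 IP arrays, against 2.13 and 3.94 with control IgG (ratio 2.86, limma adjusted p = 0.222). *Hnrnpll*, known for its part in CD45 splicing in lymphocytes, read 1.46 and 2.32 on the CUGBP1 IP arrays, against 1.11 and 1.19 with control IgG (ratio 1.64). Its limma adjusted p of 0.0920 was among the 3 lowest of the 48 and its SE was 0.25. The floor compresses ratios of dim probe sets. With 1 subtracted from every value, a step added after the data were examined, the ratio was 5.93 for *Hnrnpll*, 6.04 for *Ptbp3* and 4.625 for *Ptbp2*. It was then 3.77 for *Hnrnpl* and 2.14 for *Ptbp1* at 10364518. The control IgG values of *Hnrnpll* lay just above the background limits of 1.09 and 1.16, so its ratio after this step is imprecise. The log2 difference of *Hnrnpll* was 0.39 with arrays scaled to their medians and 0.21 with quantile normalization.

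Among hnRNP A, B and D transcripts, *Hnrnpdl* stood apart from its relatives. This relative of hnRNP D read 8.07 and 7.34 on the CUGBP1 IP arrays, against 1.58 and 2.52 with control IgG, a ratio of 3.76 (log2 1.95, SE 0.80, limma adjusted p = 0.123). *Hnrnpd* itself, which encodes the decay factor AUF1, read 4.57 and 5.59 on the CUGBP1 IP arrays, against 2.19 and 3.75 with control IgG, a ratio of 1.71 (limma adjusted p = 0.388). The difference between these genes was not tested. *Hnrnpab* had the lowest ratio of the group at 1.68, with 7.57 and 12.32 on the CUGBP1 IP arrays, against 3.31 and 8.56 with control IgG, so the groups overlapped. *Hnrnpa2b1*, whose product acts in mRNA transport, read 4.77 and 4.85 on the CUGBP1 IP arrays, against 2.38 and 2.72 with control IgG (ratio 1.89). *Hnrnpa0*, which binds AU-rich elements, read 5.0 and 5.68 on the CUGBP1 IP arrays, against 1.47 and 3.41 with control IgG (ratio 2.19). The groups did not overlap in these genes.

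The G-tract binding proteins hnRNP F and H and the U-tract binding hnRNP C had a median ratio of 2.14. In the top 5% was 1 of 8 probe sets, against 12.6% of all probe sets above background on all 4 arrays. The probe set in the top 5% was that of *Hnrnph1*, with 7.84 and 9.97 on the CUGBP1 IP arrays, against 2.48 and 3.98 with control IgG (ratio 2.76, limma adjusted p = 0.246). Its X-linked paralogue *Hnrnph2* read 2.36 and 2.49 on the CUGBP1 IP arrays, against 1.41 and 1.78 with control IgG at probe set 10601760 (ratio 1.52). The other probe set of *Hnrnph2* (10490773) read 2.74 and 2.74 on the CUGBP1 IP arrays, against 1.59 and 1.94 with control IgG (ratio 1.55). *Hnrnpc* read 3.77 and 5.09 on the CUGBP1 IP arrays, against 1.31 and 2.28 with control IgG (ratio 2.47, limma adjusted p = 0.132). The groups were apart for all 8 probe sets, as for 78.0% of all probe sets above background on all 4 arrays. None of the 5 probe sets of hnRNP M, R and U transcripts was in the top 5%, a number too small to set against that 12.6%. Their ratios ran from 1.54 (*Hnrnpul2*) to 2.23 (*Hnrnpul1*). *Hnrnpu*, which encodes a scaffold attachment protein, read 5.26 and 8.65 on the CUGBP1 IP arrays, against 2.00 and 4.75 with control IgG (ratio 2.06, limma adjusted p = 0.314). *Hnrnpul1*, a relative of *Hnrnpu*, read 5.11 and 7.93 on the CUGBP1 IP arrays, against 1.70 and 4.14 with control IgG. *Hnrnpul2* read 1.96 and 2.09 on the CUGBP1 IP arrays, against 1.19 and 1.44 with control IgG. In each of these genes the first array of both groups was the lower one. *Hnrnpm* had a ratio of 1.90 and *Hnrnpr*, a relative of the mRNA-binding protein encoded by *Syncrip*, one of 1.63.

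SR protein transcripts included both high and low ratios. Of 14 probe sets (10 genes), 7 were in the top 5% and 12 had groups that did not overlap. These shares were 5.0% and 66.3% over all tested probe sets, and 12.6% and 78.0% over those above background on all 4 arrays. The 7 include *Srsf3* at 10501661 and 10424379, *Srsf10* at 10407993 and *Srsf5* at 10508490, whose neighbouring IDs are on another chromosome. *Srsf5* read 6.09 and 6.50 on the CUGBP1 IP arrays, against 1.59 and 2.31 with control IgG at probe set 10396926, a ratio of 3.23 (log2 1.71, SE 0.72, limma adjusted p = 0.128). *Srsf1*, the founding member of the family, read 8.34 and 9.09 on the CUGBP1 IP arrays, against 2.00 and 3.72 with control IgG (ratio 3.05, limma adjusted p = 0.195). *Srsf2*, the speckle protein SC35, read 7.27 and 9.31 on the CUGBP1 IP arrays, against 2.28 and 4.11 with control IgG (ratio 2.59, limma adjusted p = 0.251). In each of these genes the groups did not overlap.

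The remaining SR genes with a single probe set had ratios below 2. *Srsf9* read 3.80 and 6.47 on the CUGBP1 IP arrays, against 1.80 and 5.03 with control IgG (ratio 1.50, limma adjusted p = 0.446), and was 2.85 times control IgG replicate 1 but 1.02 times control IgG replicate 2. *Srsf4* and *Srsf6*, close paralogues of *Srsf5*, had ratios of 1.78 and 1.84. The difference between *Srsf5* and these paralogues was not tested. *Srsf11* read 2.24 and 2.81 on the CUGBP1 IP arrays, against 1.25 and 1.34 with control IgG (ratio 1.95, log2 0.95, SE 0.34, limma adjusted p = 0.0873). Its control arrays were close, unlike those of most of the group. With 1 subtracted from every value, the ratio was 5.17 for *Srsf11*, against 2.91 for *Srsf6*, 2.22 for *Srsf4* and 1.71 for *Srsf9*. The control IgG values of *Srsf11* lie near the floor, so its ratio after this step is imprecise. *Srsf12* read 1.26 and 1.15 on the CUGBP1 IP arrays, against 1.06 and 1.22 with control IgG, within or near background on every array.

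The TRA2 proteins are SR-like activators of exons with GAA motifs. *Tra2b* read 3.26 and 5.26 on the CUGBP1 IP arrays, against 1.19 and 1.97 with control IgG at probe set 10438621 (ratio 2.70, log2 1.44, SE 0.52, limma adjusted p = 0.0912). At its other probe set (10498185) it read 6.61 and 8.47 on the CUGBP1 IP arrays, against 2.03 and 4.69 with control IgG, a ratio of 2.24. *Tra2a*, its paralogue, read 3.19 and 3.78 on the CUGBP1 IP arrays, against 1.61 and 2.33 with control IgG at probe set 10544629 (ratio 1.77). At 10544640 *Tra2a* read 2.03 and 2.47 on the CUGBP1 IP arrays, against 1.22 and 1.66 with control IgG (ratio 1.56). At the remaining probe set (10544638), the control IgG values of 1.09 and 1.16 were in the background range. It read 1.40 and 1.41 on the CUGBP1 IP arrays, a ratio of 1.25 on the deposited scale (limma adjusted p = 0.187). The log2 difference there was 0.033 with arrays scaled to their medians and 0.014 with quantile normalization.

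For 9 of the 34 genes more than 1 probe set was annotated to the gene, 23 in all, and these can be compared with each other. The ID numbers of this array follow the genome: for 96.9% of the tested probe sets whose gene has a known position, the commonest chromosome among the 20 nearest IDs was that of the gene (RefSeq, GRCm38.p6). For 11 of the 48 probe sets it was another chromosome. Transcripts of these genes and of near-identical copies elsewhere may share probes, so values of these probe sets are uncertain as measures of 1 locus.

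*Srsf3*, which encodes the smallest SR protein, differed most between its probe sets. The gene lies on chromosome 17. Probe set 10443459, whose 20 neighbours were all on chromosome 17, read 1.83 and 2.03 on the CUGBP1 IP arrays, against 1.34 and 1.44 with control IgG, a ratio of 1.39 (limma adjusted p = 0.229). Probe set 10501661, whose 20 neighbours were on chromosome 3, read 20.16 and 26.88 on the CUGBP1 IP arrays, against 4.41 and 8.88 with control IgG, a ratio of 3.54 (limma adjusted p = 0.268). Probe set 10424379, with 18 of 20 neighbours on chromosome 15, read 14.47 and 14.31 on the CUGBP1 IP arrays, against 2.64 and 5.92 with control IgG, a ratio of 3.36 (limma adjusted p = 0.232). The probe sets with neighbours on chromosomes 3 and 15 were thus in the top 5% and the one among neighbours of the gene's own chromosome was not, though the groups were apart at all 3.

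Whether such differences exceed the replicate spread was tested on the log2 difference between 2 probe sets within each array, in which a scaling of the whole array cancels. limma was fitted over 1592 such pairs of 876 genes, each with the probe set of the highest mean as the base, and called 0 of all pairs and 0 of the 14 pairs in these 9 genes (0.0% of all pairs). At an unadjusted p under 0.05 there were 198 of 1592 pairs and 1 of 14. That 1 was *Srsf3*, where the CUGBP1 IP to control IgG difference was 1.42 larger on the log2 scale at 10501661 than at 10443459 (SE 0.39, 95% interval 0.20 to 2.64, unadjusted p = 0.0337 in limma, limma adjusted p = 0.386). Between 10501661 and 10424379 it was 0.03 larger (SE 0.19, interval -0.57 to 0.63).

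*Srsf10*, an SR protein that represses splicing when dephosphorylated, showed a like split. Probe set 10407993, with 16 of 20 neighbours on chromosome 13, read 6.80 and 8.24 on the CUGBP1 IP arrays, against 1.63 and 3.84 with control IgG (ratio 2.75). Probe set 10509113, whose neighbours were all on the gene's chromosome 4, read 1.79 and 2.00 on the CUGBP1 IP arrays, against 1.14 and 1.47 with control IgG (ratio 1.45). The difference between them was 1.03 (SE 0.36, interval -0.11 to 2.17, limma adjusted p = 0.418). In *Srsf3* and *Srsf10* the probe set with the lower ratio read at most 2.03 on any array. The floor compresses ratios of such values. With 1 subtracted from every value, a step added after the data were examined, the *Srsf3* ratios were 3.99 (10501661), 4.08 (10424379) and 2.38 (10443459). Those of *Srsf10* were 3.76 (10407993) and 2.93 (10509113). The part of probe position and of shared copies in these differences was not tested.

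Of the other genes, *Hnrnpf*, *Hnrnph2*, *Hnrnpk* and *Srsf5* had close ratios at their probe sets. *Hnrnpf* had 4 probe sets, with neighbours on chromosomes 6 (its own), 1, 13 and X, and ratios of 2.09, 2.06, 2.19 and 2.42. At the probe set on chromosome 6 (10541104) *Hnrnpf* read 6.63 and 9.44 on the CUGBP1 IP arrays, against 2.53 and 5.16 with control IgG. At 10604501, with neighbours on X, it read 7.89 and 10.76 on the CUGBP1 IP arrays, against 2.53 and 5.19 with control IgG. The widest of its 3 intervals ran from -0.42 to 0.10 on the log2 scale. *Srsf5* had ratios of 3.23 on its own chromosome 12 and 3.20 at a probe set with neighbours on chromosome 4, where it read 6.31 and 6.12 on the CUGBP1 IP arrays, against 1.63 and 2.25 with control IgG. They differed by 0.02 (interval -0.26 to 0.30). For *Hnrnpk* the log2 difference at the base probe set, with neighbours on chromosome 7, minus that at the others was 0.15 for 10410970 and -0.03 for 10409689. For *Hnrnph2* it was 0.03. *Ptbp1* at its second probe set, 10407390 with neighbours on chromosome 13, read 1.99 and 2.81 on the CUGBP1 IP arrays, against 1.20 and 1.75 with control IgG (ratio 1.63). For *Ptbp1* (0.18, interval -0.78 to 1.13) and *Tra2b* (-0.16, interval -0.93 to 0.61) the intervals are wide. With 1 subtracted, the ratios were 5.62 (10438621) and 2.77 (10498185) for *Tra2b* and 2.14 (10364518) and 2.95 (10407390) for *Ptbp1*, so the order turns in *Ptbp1*. Each of the 3 probe sets of *Tra2a* had 19 of 20 neighbours on its chromosome 6. The difference of 10544629 from 10544640 was 0.19 (interval -0.07 to 0.45), and their order turns with 1 subtracted (2.56 and 2.84). No difference is given for 10544638, whose control values were in the background range.

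**Figure D2:**
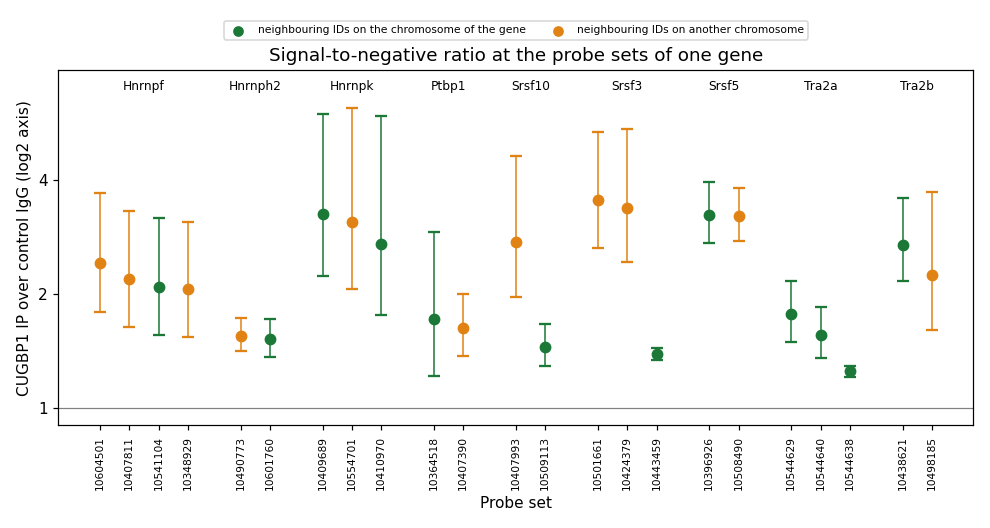
Signal-to-negative ratio (log2 axis) of the 23 probe sets of the 9 genes with more than 1, where the point uses the mean of both control IgG arrays and the ticks joined by a line use 1 control IgG array each. Colour shows whether the neighbouring IDs are on the chromosome of the gene. *Srsf3* and *Srsf10* have 1 low probe set each (1.39 and 1.45), and the probe sets of *Hnrnpf*, *Hnrnpk* and *Srsf5* lie close to each other.

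The position of the 48 within each array, rather than their level, was then compared. The median log2 difference of the 48 was 1.16, against 0.29 over all tested probe sets and 0.73 over those above background on all 4 arrays. With arrays scaled to their medians it was 0.87 against 0.00, with 47 of 48 above 0, where 50.1% of all tested probe sets were. On that scale the groups were apart upwards for 43 of the 48, against 30.8% of all tested probe sets, and downwards for 1 (*Srsf12*), against 32.9%, and limma called 3 of the 48 higher, against 6.47% of all. With quantile normalization, which gives every array the same distribution, it was -0.044 against -0.016, with 20 of 48 above 0 where 44.9% of all tested probe sets were. With quantile normalization the groups were apart upwards for 8 of the 48, against 19.4% of all tested probe sets, and downwards for 13, against 24.1%. Each sign in the account above thus holds for the deposited scale, and for 28 of the 48 it turns with quantile normalization.

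Some members had a difference above 0 on all 3 scales. With quantile normalization the log2 difference was 0.63 for *Ptbp3*, 0.59 for *Hnrnpdl* and for *Pcbp2*, and 0.51 for *Tra2b* at 10438621, and these 4 were in the top 5% of ratios so computed. It was 0.40 and 0.38 for *Srsf5*, and 0.17 and 0.21 for the higher probe sets of *Srsf3*. It was lowest for *Hnrnpab* (-0.77), *Srsf9* (-0.60), *Hnrnpd* (-0.58) and *Hnrnpa2b1* (-0.51). limma called 0 of the 48 on this scale too, where it called 2.01% of all tested probe sets higher and 0.0855% lower. It also called 0 with an offset of 1 (3.63% of all higher, 0.181% lower) and 0 among probe sets above background on all 4 arrays (3.49% of all higher).

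**Figure D3:**
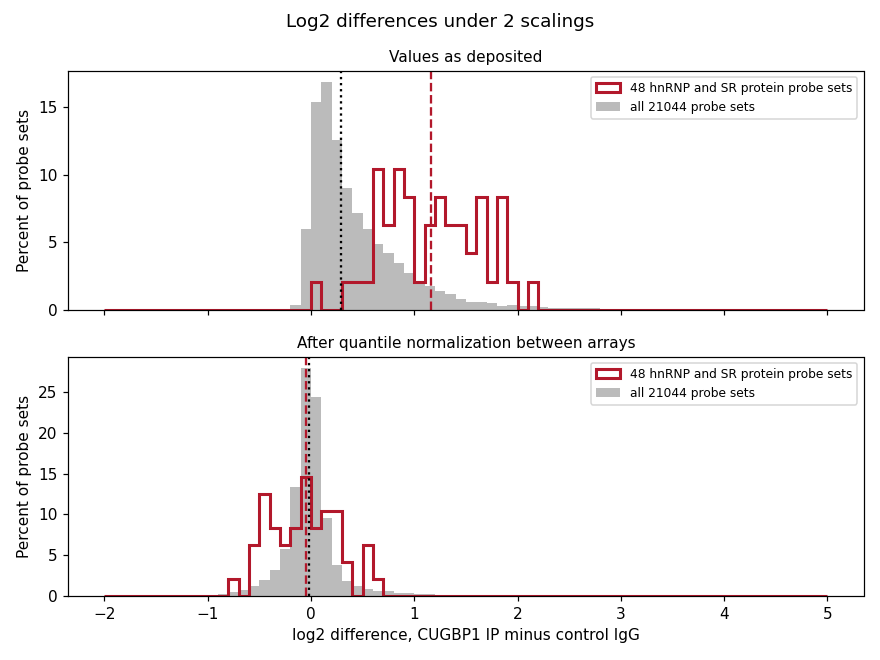
Log2 difference, CUGBP1 IP minus control IgG, of the 48 probe sets (red outline, median dashed) and of all 21044 tested probe sets (grey, median dotted), as percent of each set per bin. The median of the 48 is 1.16 against 0.29 for the values as deposited, and -0.044 against -0.016 after quantile normalization.

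Other genes of the same pathway had ratios above 1 as well. Of 26 measured genes for kinases, importers and coactivators of SR proteins (28 probe sets), limma called 1 higher and 0 lower. In the top 5% were 5 probe sets (4 genes), and the median ratio was 1.90. Over all tested probe sets 1.95% were called higher, 5.0% were in the top 5%, and the median ratio was 1.22. Over those above background on all 4 arrays, 12.6% were in the top 5% and the median ratio was 1.61. The called gene was *Ppig*, a cyclophilin with an arginine and serine rich domain, with 12.89 and 10.18 on the CUGBP1 IP arrays, against 1.28 and 1.84 with control IgG (log2 2.90, SE 0.84, limma adjusted p = 0.0397). It was 1.66 with quantile normalization. *Luc7l2*, which is linked to U1 snRNP, had a ratio of 6.17, and *Rnps1*, a part of the exon junction complex, had ratios of 3.85 and 3.93. The kinase genes *Srpk1* and *Srpk2*, whose products phosphorylate SR proteins, had ratios of 1.93 and 1.94. Of 19 measured relatives of hnRNPs outside the name rule (19 probe sets), limma called 0, with 11 at an unadjusted p under 0.05, against 28.6% of all that were higher at that level, and 3 were in the top 5%. *Fubp3* read 12.09 and 15.91 on the CUGBP1 IP arrays, against 1.66 and 1.84 with control IgG (ratio 8.0, limma adjusted p = 0.0571). *Tardbp*, *Matr3* and *Rbmx* had ratios of 1.72, 1.72 and 1.77, and the median of the list was 1.93.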

How the data were processed

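The authors deposited 1 linear intensity per probe set and Affymetrix Mouse Gene 1.0 ST array (25175 probe sets), divided by the 5th percentile of the array. The sources used here do not name the program that summarised probes or any background correction. This floor is not subtracted, so ratios of dim probe sets are compressed, and the number of arrays limits the precision. Per the labels, the arrays form 2 groups of 2. Nothing states that replicates came from separate cultures, so p-values measure only the spread between these samples, which may be technical. A platform annotation paired 21044 probe sets with 1 gene, and 20959 were named through RefSeq (GRCm38.p6). *Hnrnpa1*, *Hnrnpa3*, *Hnrnph3* and *Srsf7* had no probe set naming only them and were not analysed here. No transcript sequence was used.

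Log2 values were compared with limma 3.58.1 in R 4.3.3 (lmFit, and eBayes with an intensity trend). Tests were two-sided and p-values were adjusted by Benjamini-Hochberg over all tested probe sets, or over all pairs of probe sets of 1 gene, at a threshold of 0.05. A value up to the 95th percentile of olfactory and vomeronasal receptor probe sets of its array counts as background. Neighbours are the 10 nearest IDs on each side that name 1 gene. Values by array were given for members in the top 5%, members with more than 1 probe set and the extremes of each role group; others were chosen after their values were seen. The members and lists were chosen with earlier results of these data known. Alternatives were other scalings, an offset of 1, no trend, a background filter, the replicate number as a block, each array left out, other limits than the top 5% and another base probe set.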

Additional observations from a re-analysis of the deposited data

How the results depend on the processing

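limma called 0 of the 48 probe sets higher or lower with quantile normalization, an offset of 1, no intensity trend, the background filter, and each array left out. Without the trend and with an array left out it called 0.0% of all tested probe sets, so those fits say nothing of the 48. With arrays scaled to their medians it called 3 of the 48 higher, against 6.47% of all tested probe sets. The 3 were *Srsf11* (limma adjusted p = 0.0177), *Tra2b* at 10438621 (0.0290) and *Hnrnpll* (0.0306). A fit without 1 array has 1 residual degree of freedom, and the lone array is assumed to vary like the other group. At an unadjusted p under 0.05 it had 39 of the 48 without control IgG replicate 2 (28.9% of all tested), 5 without control IgG replicate 1 (6.66%), 2 without CUGBP1 IP replicate 1 (16.1%) and 0 without CUGBP1 IP replicate 2 (5.05%). With no trend it had 30 (22.6%), and 13 in the fit reported. The median log2 difference of the 48 ran from 0.66 (without control IgG replicate 1) to 1.67 (without control IgG replicate 2), and was -0.044 with quantile normalization. The count in the top 5% was 16 and ran from 11 to 16 with an array left out. It was 27 in the top 10%, 3 in the top 2.5%, and 4 with quantile normalization, which was added after the data were examined, and 3 of these 4 were among the 16. Pairs of probe sets of 1 gene stayed at 0 calls in every fit run.

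With the replicate number as a block, limma called 29 of the 48 higher, but it also called 56.1% of all tested probe sets higher. The deviations of same-numbered arrays had a correlation of 0.639 across 21044 probe sets. With 2 pairs and no label that ties the numbers to a shared lysate, whether same-numbered arrays form pairs is not known.

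For 28 of the 48 probe sets the sign changed with quantile normalization. The log2 difference was then -0.77 for *Hnrnpab*, -0.58 for *Hnrnpd*, -0.51 for *Hnrnpa2b1*, -0.60, -0.47, -0.11 and -0.11 for *Srsf9*, *Srsf4*, *Srsf6* and *Srsf2*, -0.11 for *Srsf12*, -0.30 for *Srsf3* at 10443459 and -0.011 for *Srsf10* at 10509113. It was -0.47, -0.43, -0.42 and -0.24 for *Hnrnpf*, -0.41 and -0.30 for *Hnrnph2*, -0.092 for *Hnrnph1*, -0.35 and -0.046 for *Ptbp1*, -0.032 for *Pcbp1*, -0.47 for *Hnrnpm*, -0.32 for *Hnrnpu*, -0.043 for *Hnrnpr*, -0.10 for *Hnrnpul1* and -0.013 for *Hnrnpul2*. It was -0.30 and -0.081 for *Tra2a* and -0.20 for *Tra2b* at 10498185. *Srsf12* was also -0.21 with arrays scaled to their medians. With an array left out *Srsf12* ran from -0.019 to 0.18 and *Srsf9* from -0.021 to 1.46, lowest without control IgG replicate 1 and highest without control IgG replicate 2. The cause was not tested. Depth is the number of arrays here, and members near the floor, such as *Srsf12*, show little of any difference.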
